A study of Chlorocebus aethiops with 30 samples.

Results

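The comparison described here asks how far Vero cells had come back to their starting state 24 h after detachment with trypsin. Vero is an epithelial cell line from African green monkey kidney (Chlorocebus aethiops), wild type in the labels. RNA sequencing covered 30 samples in 10 groups of 3. In the trypsin 24 h group, cells were detached with trypsin at 37 °C, put back in culture for 24 h and then lifted with an enzyme-free solution. In the control group, cells were lifted with an enzyme-free solution at 37 °C and collected at once. The last collection step was thus of the same kind in both groups, while the earlier trypsin treatment, the replating and the time in culture since then differed. Trypsin 0 h cells, by contrast, were collected straight after the enzyme. Culture density at collection is not given for either group.

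The members are all 340 genes of the union table, a table in which the authors give 1 mean per group for genes they selected, by a criterion that is not given in the sources used here. The table covers 7 of the 10 groups, among them trypsin at 0, 8 and 24 h and TrypLE, a recombinant trypsin substitute, at the same times. Its values are the authors' deposited means on what their ratio to gene length and to another table shows to be an FPKM scale, a read count scaled by gene length and by sequencing depth. They carry no error, so the 3 control samples and the 3 trypsin samples cannot be seen singly and no test was possible. Each difference is log2(trypsin 24 h + 1) minus log2(control + 1), and the added 1 makes the change of low genes look smaller than it was. Folds in the counts are on this scale, while a percentage of control is the plain ratio of the means. A symbol was found for 199 of the 340 genes through the authors' table of trypsin against TrypLE at 0 h, 49 of them a LOC number only, and 134 genes had no entry there. Of the 18 epithelial, 17 proximal tubule and 12 fibroblast markers looked for, 0 were in the union table, so cell identity could not be checked in it.

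As background, cells torn from their support lose contacts with matrix and neighbours and then rebuild them over hours. Detachment and reattachment act on immediate early genes, which respond within minutes of a signal and many of which encode transcription factors. They also act on feedback inhibitors such as the DUSP phosphatases and the Sprouty proteins, which turn the ERK branch of MAP kinase signalling down again. Regrowth also draws on ribosomal proteins, the respiratory chain and the mitotic machinery.

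At 24 h most genes of the table lay close to control, as most also did at 0 h and 8 h after trypsin. Of the 340 genes, 237 (69.7%) were within 1.5-fold of the control mean, which is taken here as control level. A further 31 genes were higher and 40 lower by 1.5-fold to 2-fold. Differences of 2-fold or more were found for 10 genes (2.94%) on the high side and 22 genes (6.47%) on the low side. The low count rests on the pseudocount, being 37 with 0.1 added in place of 1 and 11 with 5. Counted from 1.5-fold upward, 41 genes (12.1%) were higher and 62 (18.2%) lower. Values above control, of any size, were found for 171 genes (50.3%), and the median difference was 0.00077 on the log2 scale. The genes nearest the lower 2-fold bound were one without a symbol at -1.00009, counted as lower, and KLF6 at -0.996, not counted. Near the upper bound, GADD45B at 0.987 was not counted and the next gene, without a symbol, was at 1.10. The share of the 340 genes within 1.5-fold was 56.8% at trypsin 0 h and 78.8% at 8 h, against 69.7% at 24 h. After TrypLE at 24 h it was 74.4%. A gene at control level at 24 h thus need not have left that level earlier.

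**Figure D1:**
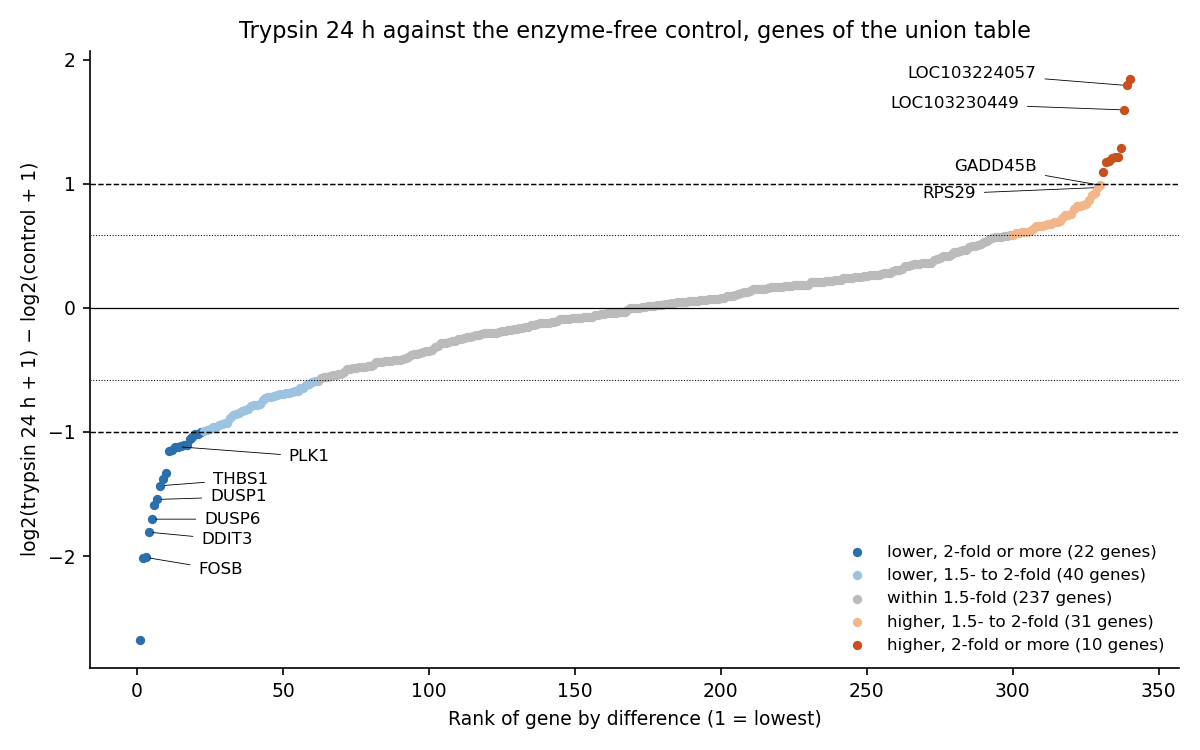
Each point is 1 of the 340 genes, ordered along the x axis by its difference, and the y axis gives log2(trypsin 24 h + 1) minus log2(control + 1). Dashed lines mark 2-fold and dotted lines 1.5-fold, and the low end, with FOSB at -2.01 and DDIT3 at -1.81, reaches further than the high end, where LOC103224057, the highest gene with a symbol, is at 1.79.

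The only single libraries in hand are those of the 0 h groups. Over the 206 genes with such values, the SD of log2(value + 1) among the 3 trypsin 0 h libraries had a median of 0.19 and a 90th percentile of 0.32, and for 205 genes it was below 0.58, the log2 value of 1.5-fold. Among the 3 TrypLE 0 h libraries it was above 0.58 for some genes named below. It was 0.78 for LOC103230449, 0.75 for LOC119619672, 0.62 for RPS29 and 0.61 for UQCRH. For LOC103224057 and GADD45B it was 0.07 and 0.10 there. These spreads belong to another time point, and a spread at 24 h cannot be had from the table. The design calls the samples of each group biological replicates and does not say whether they were separate cultures. Since RNA came from whole cultures, fewer cells making a transcript and less of it per cell cannot be told apart in any value here.

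Among the lists with more than 1 gene in the table, feedback inhibitors of MAP kinase signalling had the lowest median. Of 18 such genes looked for, 4 were in the table, and all 4 were lower by at least 1.5-fold and 3 by at least 2-fold, against 18.2% and 6.47% of all genes. DUSP6, a cytoplasmic phosphatase that acts on ERK, had a mean of 38.5 in control cells, 11.5 right after trypsin, 8.89 at 8 h and 11.1 at 24 h. It thus stood at 28.9% of control a day after detachment, a log2 difference of -1.70, close to its value right after trypsin. DUSP1, a nuclear phosphatase of several MAP kinases, had 373 in control cells, 225 at 0 h, 102 at 8 h and 127 at 24 h, which is 34.1% of control. SPRY2, a Sprouty protein that dampens receptor tyrosine kinase signals, was at 15.03 in control cells and 17.2 at 0 h, and only later went below, to 10.9 at 8 h and 6.79 at 24 h. The fourth member, DUSP5, stood at 16.1 against 28.7 in control cells (log2 difference -0.79), and its product acts on ERK in the nucleus. The median of the 4 genes was -1.29, against 0.00077 over all genes of the table. After TrypLE at 24 h the same 4 genes had a median of -0.07, with DUSP6 at 35.1, SPRY2 at 14.9 and DUSP1, the furthest below control of them, at 220. Both enzyme comparisons use the same control means, so their values are set side by side only.

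Immediate early genes were mostly below control as well. Of 39 looked for, 13 were in the table, 12 of them below control, while 50.3% of all genes were above it. Of the 13, 6 were lower by at least 1.5-fold and 1 by at least 2-fold, against 18.2% and 6.47% of all genes. The last count is near the background. With the added 1, KLF6 and EGR3 stay inside the 2-fold bound, although the plain ratio of their means was 48.6% and 25.8% of control. FOSB, a subunit of the AP-1 transcription factor, had 14.5 in control cells, 12.1 at 0 h, 3.78 at 8 h and 2.83 at 24 h, so that it was near control right after trypsin and at 19.6% of control a day later. KLF6, a zinc finger transcription factor, was at 32.7 in control cells and stayed between 14.1 and 15.9 at all 3 times after trypsin. HES1, a transcriptional repressor downstream of Notch, took the opposite course. It had 438 in control cells, 25.9 at 0 h, 73.8 at 8 h and 253 at 24 h, climbing back to 57.9% of control, and its 3 libraries at 0 h held 29.4, 22.7 and 25.6. ATF3, a stress-responsive factor of the ATF family, went likewise from 20.8 at 0 h to 43.0 at 24 h, against 70.2 in control cells. MAFF, a small Maf protein, was at 14.9 and EGR3 at 0.329, against 26.9 and 1.27 in control cells. CCN1, a secreted matricellular protein on this list, was the exception above control. After TrypLE at 24 h, 9 of the 13 were above control, with a median of 0.12 and FOSB at 15.1. All 340 genes had a median of -0.14 in that group, with 118 above control.

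DDIT3, which encodes the stress factor CHOP, had 66.4 in control cells, 14.8 at 0 h, 22.0 at 8 h and 18.3 at 24 h. It was thus at 27.5% of control at 24 h. Of 22 genes looked for in the integrated stress response, the pathway in which translation is held back under stress, 4 were in the table. PPP1R15A, which restarts translation, and DDIT4, an inhibitor of mTORC1, were lower than control with log2 differences of -0.60 and -0.69, whereas CEBPB, a transcription factor that works with CHOP, was at 145 against 106. NFKBIA and NFKBIZ, feedback regulators of NF-kappaB, were the 2 genes in the table of 16 looked for. NFKBIA had 46.3 in control cells and 20.2 at 24 h, and NFKBIZ 28.0 and 15.1, with log2 differences of -1.16 and -0.85. GDF15, a secreted stress cytokine of the TGF-beta family, went from 118 in control cells through 18.2 at 8 h to 54.1 at 24 h. PFKFB3, an enzyme that promotes glycolysis, was at 51.8% of control, and BHLHE40, a repressor linked to hypoxia and the circadian clock, was at 109 against 172. The TrypLE 24 h group differed by gene here, with DDIT3 at 21.9, NFKBIA at 28.4 and GDF15 at 109.

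**Figure D2:**
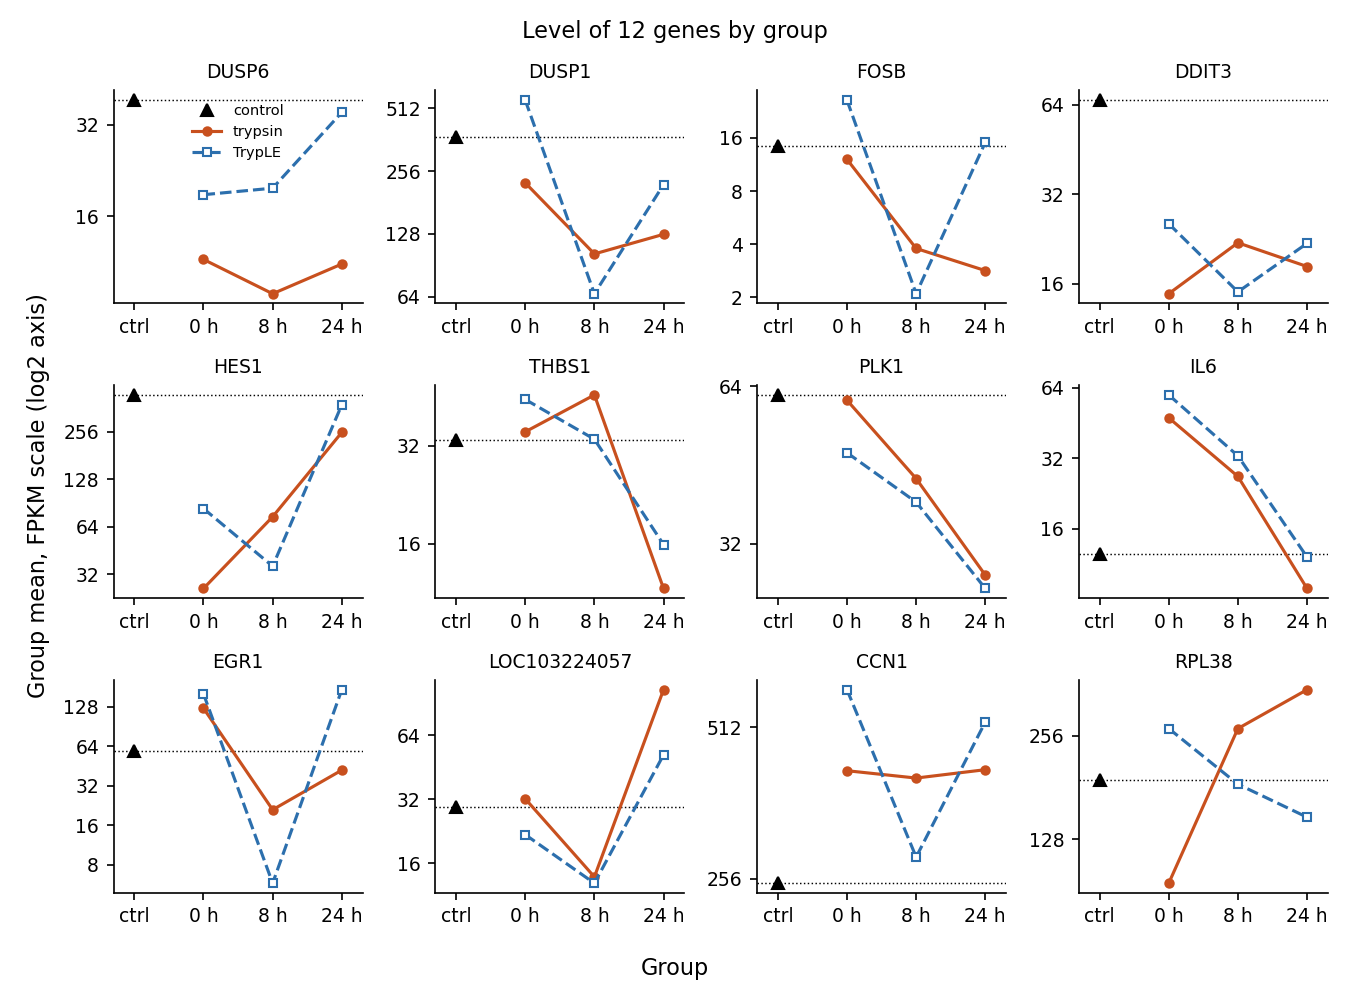
Group means of 12 genes on the FPKM scale (y axis, log2) in the control (triangle and dotted line) and at 0, 8 and 24 h after trypsin (filled circles) or TrypLE (open squares), with no error because the table gives means only. DUSP6 and DDIT3 stayed low from 0 h on, THBS1 and PLK1 were near control at 0 h and low at 24 h, HES1 climbed towards control, and RPL38 went from 95.1 at 0 h to 349 at 24 h against 191 in control cells.

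Another set of genes was within 1.5-fold of control at 0 h and 8 h after trypsin and lower by 2-fold or more at 24 h. THBS1, which encodes the matrix protein thrombospondin 1, had 33.2 in control cells, 35.2 at 0 h, 45.8 at 8 h and 11.6 at 24 h, or 35.1% of control. PLK1, a kinase needed for mitosis, had 61.7, 60.2, 42.6 and 27.8 in the same order. PHC2, a subunit of a Polycomb repressive complex, had 36.9, 27.7, 39.6 and 16.1. In the TrypLE 24 h group these genes were below control too, THBS1 at 15.9, PLK1 at 26.3 and PHC2 at 24.4. All 5 of the 35 mitotic genes looked for that were in the table were below control, although 50.3% of all genes were above it. Besides PLK1 they were KIF4A, a chromosome-bound motor, at -0.59, the kinetochore proteins CENPF and KNL1 at -0.37 and -0.31, and the proliferation marker MKI67 at -0.19. Of 36 S phase genes, 0 were in the table. ZBTB6, by its symbol a zinc finger protein, was at 133 at 0 h, above the control value of 86.9, and at 44.2 at 24 h. The authors' entry for it lists the protein family Pro_isomerase, so which protein these values belong to is uncertain.

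On the high side, none of the 10 genes past 2-fold with 1 added had a conventional symbol. With 0.1 added, GADD45B passed the bound too, at 1.01. Of these, 5 had a LOC number and a description, and 5 had no annotation in the files. LOC103224057, described as thioredoxin interacting protein (TXNIP in human, an arrestin-like protein that restrains thioredoxin and glucose uptake), had 29.6 in control cells, 32.2 at 0 h, 13.8 at 8 h and 105 at 24 h, a log2 difference of 1.79. The plain ratio of its means was 3.54. Its 3 libraries at 0 h held 33.5, 30.3 and 32.9. The other 4 described loci, taken up below, encode small ribosomal or respiratory proteins. After TrypLE at 24 h, LOC103224057 was at 51.9.

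Several genes with a symbol were higher by 1.5-fold to 2-fold. GADD45B, a stress-inducible regulator of growth arrest, had 27.2 in control cells and 54.8 at 24 h, at the bound itself. CCN1 had 251 in control cells and then 420, 406 and 422 at 0, 8 and 24 h, a plateau at about the same distance above control. LOC103241750, described as an IFITM3-like locus, had 23.7 in control cells and 46.0 at 24 h, and 0 of 23 interferon-stimulated genes looked for were in the table. Of 30 targets of YAP or serum response factor looked for, which report on attachment and tension, 6 were in the table. Their differences ran in both directions, with CCN1 at 0.75, AMOTL2, an angiomotin family protein, at 0.34, EDN1, the endothelin precursor, at 0.17, CCN2, a second matricellular protein, at 0.04, F3, the clotting initiator tissue factor, at -0.74 and THBS1 at -1.43. Of the 3 cytokines in the table, of 26 looked for, all were below control but within 1.5-fold. They were IL11 at 131 against 193, HBEGF, a ligand of the EGF receptor, at 10.9 against 14.04, and IL6, taken up below. Over all genes 50.3% were above control and 69.7% within 1.5-fold.

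Ribosomal protein genes crossed control between 0 h and 24 h. The 29 genes in the table had a median difference of -0.62 at 0 h, -0.03 at 8 h and 0.19 at 24 h. All 29 were below control at 0 h, and 22 were above it at 24 h. Over all 340 genes, 82 were above control at 0 h, with a median of -0.48, and 50.3% at 24 h. Only the 206 genes in the authors' comparison of trypsin with TrypLE at 0 h could join this list, and they are a selection. Of these 206, 38 were above control at 0 h, with a median of -0.55, and 122 at 24 h, with a median of 0.07. The 0 h median of the list is thus near that of the genes it was drawn from. Of the 29, 23 were within 1.5-fold and 6 higher by 1.5-fold or more, where 69.7% and 12.1% of all genes were, so the first count is near the background. RPS29 had 56.2 in control cells, 26.9 at 0 h, 73.2 at 8 h and 111 at 24 h. RPL38 had 191, 95.1, 269 and 349, and RPL37 had 283, 129, 340 and 447. Members of high level differed little, RPL28 with 1751 in control cells and 1909 at 24 h and RPL35 with 1553 and 1463. In the TrypLE 24 h group 28 of the 29 were below control, with a median of -0.22. All 340 genes had a median of -0.14 in that group, with 118 above control. The 206 genes had one of -0.16, with 62 above control.

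Genes of oxidative phosphorylation, the respiratory chain and ATP synthase together, were also below control at 0 h and mostly above it later. This list was drawn up by symbol after the values were seen. Its 16 genes had a median of -0.68 at 0 h, 0.13 at 8 h and 0.17 at 24 h, with 14 above control at 8 h and 13 at 24 h. All 340 genes had medians of -0.48, -0.06 and 0.00077 at these times, with 143 above control at 8 h and 171 at 24 h. For the 206 genes from which the list could be drawn, the medians were -0.55, -0.02 and 0.07, with 93 and 122 above control. UQCRH, the hinge protein of complex III, had 23.8 in control cells, 10.3 at 0 h and 43.1 at 24 h. It was the only one of the 16 higher by 1.5-fold or more, where 12.1% of all genes were. ATP5MJ, a small subunit of ATP synthase, had 147 and 217 in control and trypsin 24 h cells, and NDUFA13, a subunit of complex I, 77.5 and 107. NDUFA4 and UQCR10, of complexes IV and III, had log2 differences of -0.08 and -0.06. ROMO1, a small protein of the inner mitochondrial membrane, had 81.9 and 147. LOC119619672, described as cytochrome c oxidase subunit 7C, had 44.6 and 104. TMSB10, an actin-sequestering thymosin, had 1126 in control cells, 595 at 0 h and 1270 at 24 h.

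Some loci that the authors' table describes as ribosomal proteins under a LOC number differed more than the named genes. Reads can be divided between near-identical copies, so the values of such loci are uncertain. Of 17 such loci, 14 were above control at 24 h, 3 of them by 2-fold or more, against 50.3% and 2.94% of all genes. The median of the 17 was 0.28, against 0.19 for the 29 named ribosomal protein genes. Within 1.5-fold were 11 of the 17 loci and 23 of the 29 named genes. Among the 49 genes with a LOC number, from which these loci come, 34 were above control and 5 by 2-fold or more. LOC119619012, described as S27, had 150 in control cells, 40.9 at 0 h and 351 at 24 h, while RPS27 itself had 231, 108 and 274. Its 3 libraries at 0 h held 51.8, 45.3 and 25.6, a wide spread. LOC103230449, described as L35-like, had 34.8 and 107 in control and trypsin 24 h cells, while RPL35 had a log2 difference of -0.09. LOC103234934, described as S26-like, had 11.8 and 30.1, against 430 and 499 for RPS26. When locus and named gene were summed, the log2 difference was 0.71 for S27, -0.02 for L35 and 0.26 for this S26 pair. LOC103232182, described as P2-like, had 23.7 in control and 42.7 in trypsin 24 h cells, and LOC119622745, described as thymosin beta-10, had 122 and 217. Over the 11 loci whose named counterpart was in the table, thymosin beta-10 included, the median was 0.70 for the locus and 0.17 for the counterpart, and the locus had the larger difference in 8. RPS26 serves there as the counterpart of both LOC103234934 and LOC103241722.

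**Figure D3:**
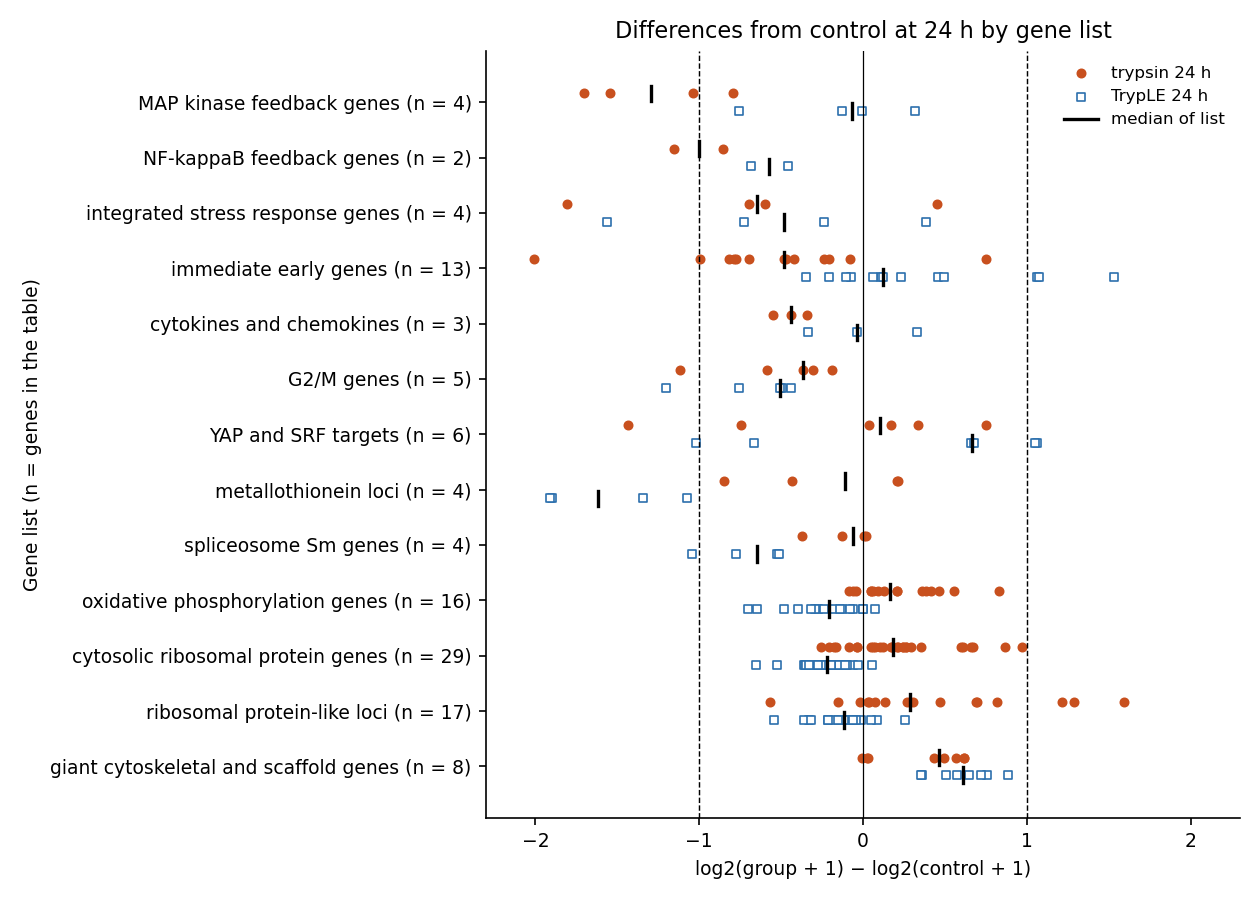
Differences from control at 24 h for the genes of 13 lists, after trypsin (filled circles) and after TrypLE (open squares), with a black bar at each list's median and dashed lines at 2-fold. The MAP kinase feedback genes sit between -1.70 and -0.79 after trypsin and have a median of -0.07 after TrypLE, and the ribosomal protein genes lie mostly above 0 after trypsin and below 0 after TrypLE.

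The differences varied with gene length. Among the 206 genes with a listed length, the 29 genes of up to 500 bases had a median difference of 0.50 at 24 h, and 23 of them were above control. The median was 0.13 for the 73 genes of 500 to 1000 bases, -0.04 for 31 genes of 1000 to 2000 bases, -0.14 for 40 genes of 2000 to 4000 bases and -0.19 for 33 longer genes. At 0 h the order was the reverse, from -0.84 in the shortest class to -0.08 in the longest. In the TrypLE 24 h group it ran from -0.31 in the shortest to 0.06 in the longest. Ribosomal protein genes had a median length of 602 bases and oxidative phosphorylation genes one of 555, whereas MAP kinase feedback genes had 2724, so that the gene groups above and length move together, and the part of length in their differences was not tested. Of the 33 genes of over 4000 bases, 15 were above control. Of 8 giant cytoskeletal, surface and Golgi genes picked after the values were seen, 7 were above control and 2 by 1.5-fold or more. Over all genes these shares were 50.3% and 12.1%. The 2 were DST, a linker of filament systems, at 0.62 and GOLGB1, the Golgi protein giantin, at 0.61. AHNAK and MACF1, also among the 7, were at 0.02 and 0.03. Long genes outside this picked list, such as CENPF, KNL1 and MKI67, were below control, so the list does not stand for long genes in general.

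**Figure D4:**
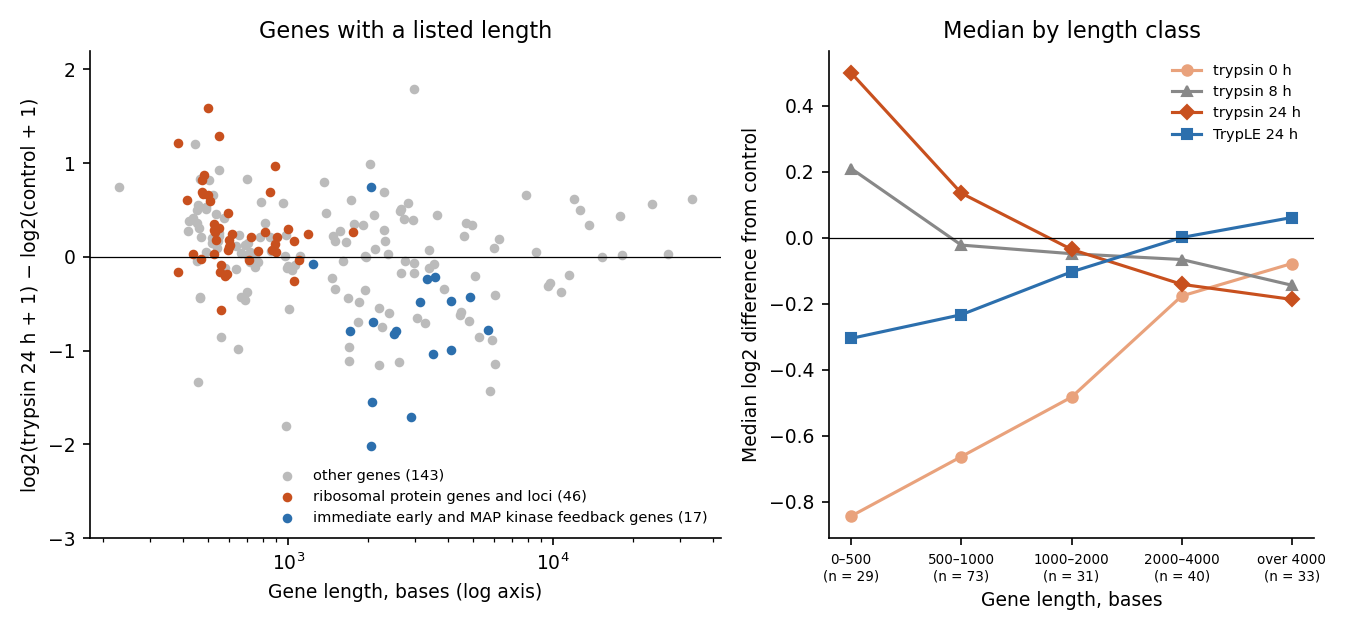
Left, the difference at trypsin 24 h (y axis, log2) against gene length (x axis, log) for the 206 genes with a listed length, with 46 ribosomal protein genes and loci and 17 immediate early and MAP kinase feedback genes in colour. Right, the median difference from control by length class, which at 24 h after trypsin goes from 0.50 in the shortest genes to -0.19 in the longest and at 0 h from -0.84 to -0.08.

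The genes that were furthest off right after trypsin had taken different paths by 24 h. At 0 h, 33 genes (9.71%) were lower than control by 2-fold or more and 6 (1.76%) higher, on the authors' scale, in which the median of all 340 genes at 0 h was -0.48. Of these 39 genes, 9 were within 1.5-fold at 24 h. On the same side by 2-fold or more were 7, all of them low, and on the other side by 2-fold or more were 4, all of them low at 0 h and high at 24 h. The remaining 19 lay between the bounds, 9 on the side of 0 h and 10 on the other. With each time point centred on its own median, the number within 1.5-fold was 20. The 2 comparisons share the control means, so these numbers describe paths and are not independent.

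Of the 6 genes that had been higher at 0 h, 4 were back at control level. IL6, the inflammatory cytokine, had 12.5 in control cells, 47.7 at 0 h, 26.8 at 8 h and 8.92 at 24 h. EGR1, a zinc finger factor of the early response, had 59.0, 124, 21.0 and 42.0 in that order, passing below control on the way. After TrypLE at 24 h IL6 was at 12.1 and EGR1 at 172. Of the 33 genes that had been lower at 0 h, 5 were back at control level. Among them RPS27 is described above, and ZC3H10, a zinc finger protein, had 118, 58.3 and 162 in control, 0 h and 24 h cells. LOC103224307, described as ATP synthase subunit f, was another, with 66.0, 25.9 and 93.7. LOC103219498 counts among the 4 back from above only because of the added 1, its 24 h mean being 49.3% of control. It had 0.407 in control cells, 9.45 at 0 h, 0.309 at 8 h and 0.201 at 24 h, and its 3 libraries at 0 h were uneven at 4.55, 17.1 and 6.68. Genes that had been just inside the 2-fold bound at 0 h included LOC103232362, described as L36a, with 277, 139 and 384 in control, 0 h and 24 h cells, and LOC103229396, described as an SRA stem-loop interacting RNA-binding protein, with 62.1, 32.0 and 75.6. RPL39, RPS21 and RPS26 were among them too, with 0 h values of 177, 79.1 and 224 and 24 h values of 447, 182 and 499, against 350, 157 and 430 in control cells. Of 4 loci described as metallothioneins, which bind zinc and copper, 3 were within 1.5-fold, and LOC103233029, described as metallothionein-2, was at 228 against 411. These loci are near copies of one another, so their values are uncertain. In the TrypLE 24 h group all 4 of these loci, a list drawn up after the values were seen, were lower, with a median of -1.62, against -0.14 over all genes. The 4 Sm genes of the spliceosome, chosen in the same way, were all within 1.5-fold after trypsin, at a median of -0.06. Over all genes 69.7% were within 1.5-fold of control at trypsin 24 h, and both of these lists hold only 4 members.

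Genes without an annotation in the files made up 11 of the 22 genes lower and 5 of the 10 genes higher by 2-fold or more. Such genes were 134 of all 340, so both shares are only somewhat above that of the whole table. The lowest of all 340 was gene 103246494, with 29.9 in control cells, 3.00 at 0 h, 7.57 at 8 h and 3.84 at 24 h. Gene 103234667 had 40.5, 14.9, 3.67 and 9.26. The highest was gene 103240638, with 79.2 in control cells, 103 at 0 h, 40.4 at 8 h and 287 at 24 h, and it was at 333 after TrypLE at 24 h. Gene 103223339 had 18.3 in control cells and 43.7 at 24 h. Besides these, LOC103247522 and LOC103241254, uncharacterized loci, were at 2.34 and 23.1 at 24 h against 7.40 and 46.7 in control cells.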

How the data were processed

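RNA of Vero cells was sequenced. The submitters' processing notes name HISAT2 2.0.5 (an aligner) and featureCounts 1.5.0-p3 (a read counter). Build and annotation: not given in the sources used here, and positions are left out. The union table holds the authors' deposited group means. Its header names no unit. Over 206 shared genes its 0 h values equal the deposited normalized counts per kilobase divided by 15.8 (trypsin, coefficient of variation 0.0143%), from which an FPKM scale was inferred. The single library columns of the deposited 0 h table are a signal, taken from its values to be normalized read counts, since no header or label names the unit. They were put on the FPKM scale with that divisor, or with 15.7 for TrypLE, and used for the spread at 0 h only. That table lists only genes whose deposited p-value was below 0.05, so the 206 genes are a selection. Depth is not given for the control and the 24 h group, which limits precision for low genes by an unknown amount. Cold TrypLE, 9 samples, was not analysed here.

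Differences used a pseudocount of 1 and bounds of 1.5-fold and 2-fold, with no test. Named genes had a symbol and a mean of at least 1 in either group, and were the 15 highest, the 15 lowest and the 10 that had differed most at 0 h and were back. One gene that this rule names is not reported here. Members of the gene lists were named as well, and the 2 extreme genes without annotation on each side, chosen after their values were seen. Outside these choices, LOC103219498, with a mean below 1 in both groups, and TMSB10 were named too. Members and lists were chosen with earlier results of these data known. Of the lists, those for heat shock, S phase, cholesterol synthesis, TGF-beta, Wnt, interferon, histone, tubule, epithelial, fibroblast, endothelial and immune genes had 0 members in the table. Classes were tested on simulated data. Python 3.11.15, pandas 2.3.3, numpy 2.4.6 and matplotlib 3.10.9 were used.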

Additional observations from a re-analysis of the deposited data

How the results depend on the processing

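No leave-one-out or paired analysis was possible because the table gives group means only. Genes lower by 2-fold or more numbered 22, and 37 with a pseudocount of 0.1 and 11 with one of 5, since a pseudocount acts most on low values. With a bound of 1.5-fold for a difference and a narrower one for return, 41 genes were higher, 62 lower and 52 had moved at 0 h and were back. With bounds of 3-fold and 2-fold these counts were 3, 6 and 5. Centring each difference on its median gave 20 genes back, against 9. Among the 150 genes with a symbol other than a LOC number, a choice made after seeing the data, 0 were higher, 10 lower, 110 at control level and 4 back, as fewer genes were counted. The other counts stayed within 1.5 times, also with a minimum mean of 1 or 10. Of 40 named genes 0 changed sign, while 2 moved by more than the 0 h spread of 0.19 with a pseudocount of 0.1 and 8 with one of 5.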
